A study of Homo sapiens with 36 samples.

Results

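The mucins, trefoil factors and goblet cell genes followed here are 10 genes chosen by name: the secreted mucins MUC2, MUC5AC and MUC5B, the membrane mucins MUC13 and MUC20, the trefoil factors TFF1, TFF2 and TFF3, the disulfide isomerase AGR2 and the mucus protein FCGBP. Of these 10, 9 have a row among the 26468 genes of the expression table, and MUC5AC was not analysed here. RNA was sequenced from the human colon cancer lines COLO205, COLO320, HCT-15, HCT116, HT-29 and SW480, 6 in all. Each line was given 0.5 µM JQ1 or DMSO, the solvent, for 24 h, and each of the 12 groups holds 3 libraries, 36 in all. Levels are RPKM, reads scaled by gene length and by library depth. JQ1 blocks the bromodomains with which the BET proteins bind acetylated chromatin and help RNA polymerase to elongate.

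Goblet cells are the secretory cells of the gut lining that make its mucus. Gel-forming mucins such as MUC2 are assembled by disulfide bonds in the endoplasmic reticulum, coated with O-linked sugars in the Golgi and stored in granules with trefoil peptides, which help the lining to repair. Membrane mucins such as MUC13 stay on the apical surface, and MUC5AC, TFF1 and TFF2 are better known from the surface and gland cells of the stomach. The transcription factors ATOH1 and SPDEF act in sequence in the making of goblet cells.

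The promoters of 4 members, MUC2, MUC13, AGR2 and FCGBP, were found in a RefSeq promoter table of the build GRCh38.p14. Those of MUC2, MUC13 and AGR2 are shown because these genes were all lower with JQ1 in HT-29, at very different levels. The bases run up to the base before the annotated start for MUC2 (chr11:1074624-1074873, plus strand) and MUC13 (chr3:124934752-124935001, minus strand). For AGR2 (chr7:16805081-16805249, minus strand) they end 82 bases before it. Capitals mark matches to the motifs searched.
MUC2: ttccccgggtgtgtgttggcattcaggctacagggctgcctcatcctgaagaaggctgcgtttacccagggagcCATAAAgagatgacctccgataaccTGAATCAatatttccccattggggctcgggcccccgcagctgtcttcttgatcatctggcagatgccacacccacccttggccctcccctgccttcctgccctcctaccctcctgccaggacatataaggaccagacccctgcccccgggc
MUC13: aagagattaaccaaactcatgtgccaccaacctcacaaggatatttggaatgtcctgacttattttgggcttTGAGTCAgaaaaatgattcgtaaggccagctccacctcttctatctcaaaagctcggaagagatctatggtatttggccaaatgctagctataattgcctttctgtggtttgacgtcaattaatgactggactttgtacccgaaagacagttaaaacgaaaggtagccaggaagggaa
AGR2: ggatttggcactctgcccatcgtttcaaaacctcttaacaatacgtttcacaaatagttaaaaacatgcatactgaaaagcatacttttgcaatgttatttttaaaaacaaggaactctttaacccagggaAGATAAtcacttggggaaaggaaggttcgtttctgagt

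In these windows 8 motifs were searched on both strands: the TATA box TATAAA, then AGATAA for the GATA factors, TTTATG for the CDX factors, TGANTCA for AP-1, the forkhead core TGTTTAC, the E-box CACGTG, the ETS core CCGGAA and the GC box GGGCGG. No match overlapped another. The AP-1 core TGANTCA was present in the MUC2 and MUC13 windows and in 6.57% of the 35116 promoters over the same 250 bases. The MUC2 window also held TTTATG on the minus strand, found in 9.64% of promoters. The AGR2 window of 169 bases held AGATAA on the plus strand of the gene, found in 6.7% of promoters over that stretch. None of the 3 windows held TGTTTAC, which 2.98% of promoters held over 250 bases and 2.0% over 169 bases. A match describes the letters in these windows and is not a measured binding site.

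Depth was 18.8 to 53.1 M reads assigned to genes, median 24.5 M. HEXIM1, an inhibitor of the elongation kinase P-TEFb and a common readout of BET inhibition, rose in every line, least in HCT-15 (2.09-fold) and most in COLO205 (6.35-fold; limma, highest adjusted p = 1.19e-23). Of 12 epithelial markers, 5 in COLO320 to 12 in HT-29 reached a mean of 1 RPKM in DMSO. Of 9 goblet cell markers, 5 did so in HT-29, 4 in COLO205, 1 in HCT-15, 1 in COLO320 and none in HCT116 or SW480. CLCA1, ZG16, FCGBP and MUC2 of this goblet cell list stayed under 1 RPKM in all 12 groups. The others of the list went above it. The highest group means were 399 RPKM for AGR2, 20.6 for SPDEF and 2.15 for ATOH1, in HT-29 DMSO. In COLO205 DMSO they were 83.8 RPKM for TFF3 and 2.31 for SPINK4.

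Levels of the goblet cell genes separated the lines before treatment. In DMSO, 6 of the 9 measured members had a mean of at least 1 RPKM in COLO205, 5 in HT-29, 3 in HCT-15, 1 in SW480 and none in HCT116 or COLO320. With JQ1 the numbers were 4 in COLO205, 4 in HT-29, 1 in HCT-15 and none in the other 3 lines. The 6 members MUC13, MUC20, TFF1, TFF2, TFF3 and AGR2 reached 1 RPKM in at least 3 libraries and were tested with limma on log2(RPKM + 0.5), among 15542 genes. MUC2, MUC5B and FCGBP did not reach 1 RPKM in any library. TFF1 reached it in 5 libraries and TFF2 in 4, all of HT-29 or COLO205 and, for TFF2, all DMSO, and TFF3 reached it in 11 libraries of the same lines. Their place among the tested genes therefore rests on the groups where they are high, and counts over the tested members are given as a description. In bulk RNA, fewer cells of a type and less RNA per cell cannot be told apart.

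**Figure D1:**
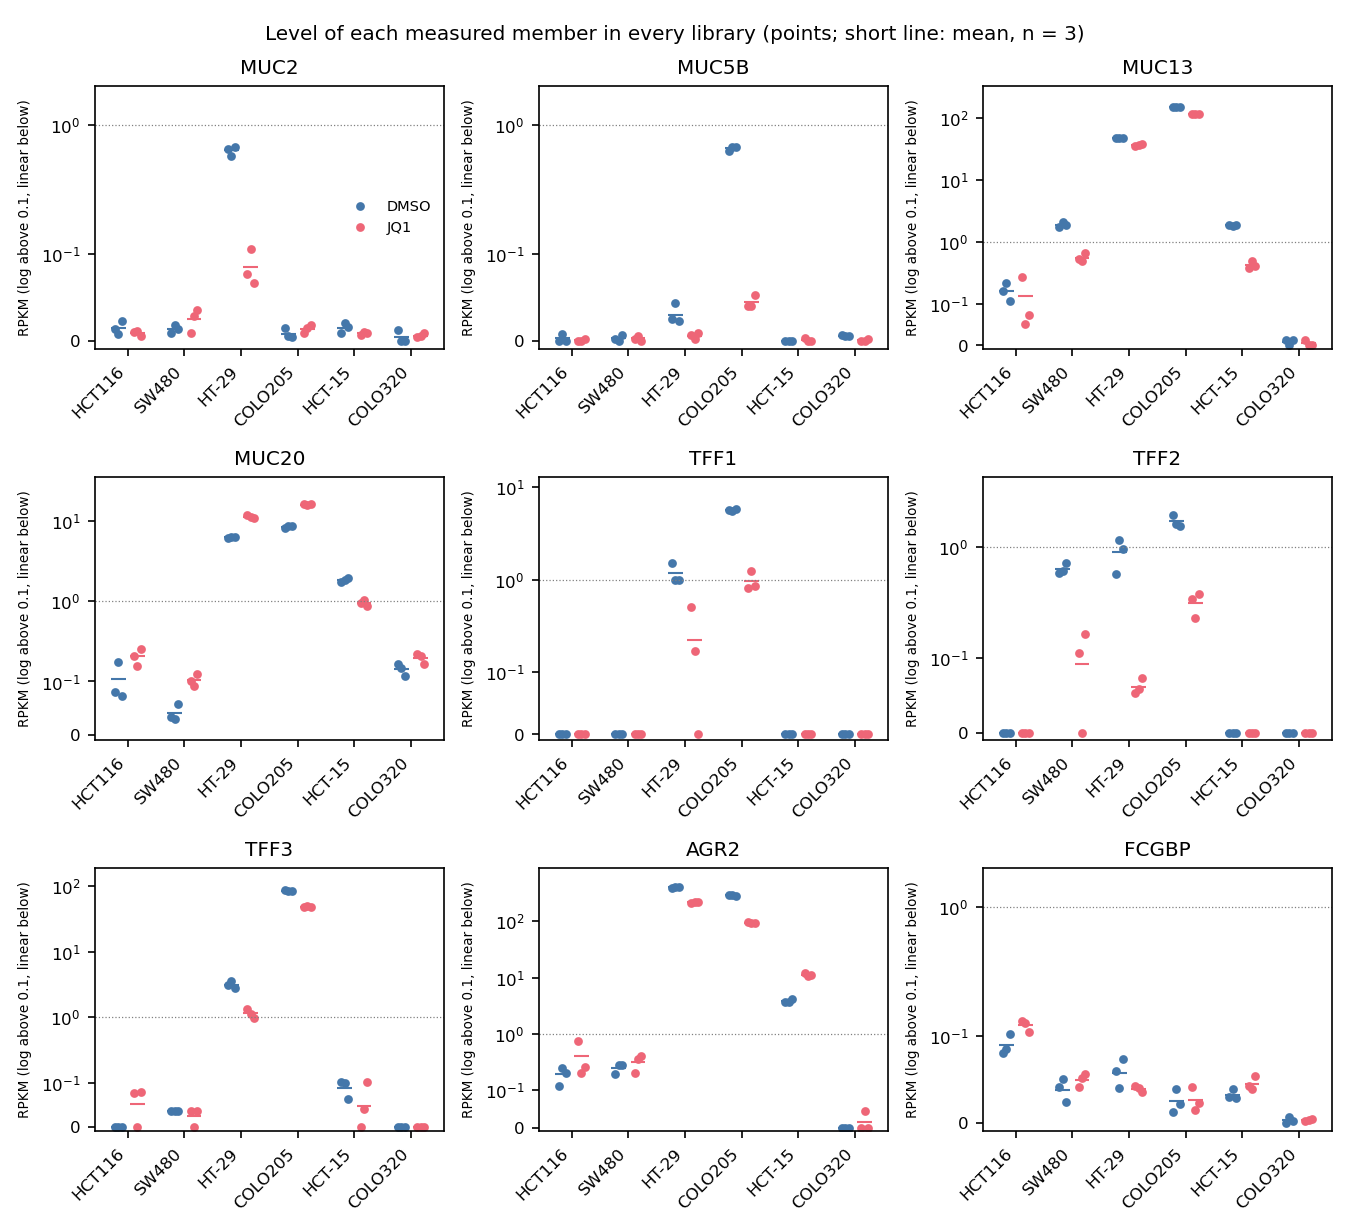
RPKM of the 9 measured members in every library, by cell line, on an axis that is logarithmic above 0.1 and linear below; blue points are DMSO, red points JQ1, short lines the mean of 3 libraries and the dotted line marks 1 RPKM. AGR2, MUC13, MUC20 and the trefoil factors lie highest in HT-29 and COLO205, while MUC2, MUC5B and FCGBP stay under 1 RPKM in every library.

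In DMSO, 98.8% of all genes tested differed between lines (F test in limma). The members are described by their order. MUC13, MUC20, TFF1, TFF2 and TFF3 were highest in COLO205 and second in HT-29, and AGR2 was highest in HT-29 and second in COLO205. Between these lines each of the 6 differed, as did 12551 of the 15542 genes tested. The gap was widest for TFF3 (4.54 on the log2 scale) and narrowest for MUC20 (0.41). TFF1, TFF2 and TFF3 entered the tests through HT-29 and COLO205 alone, so their differences are given as a description. Lower in the order, several neighbours did not differ beyond their spread: SW480 and HCT-15 for MUC13 (adjusted p = 0.815), COLO320 and HCT116 for MUC20 (adjusted p = 0.176), and SW480 and HCT116 for AGR2 (adjusted p = 0.356). For TFF3 neither HCT-15 and SW480 (adjusted p = 0.0679) nor SW480 and HCT116 (adjusted p = 0.169) differed.

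With JQ1, most of the changes of the tested members that passed in single lines were falls. In COLO205 the 5 members MUC13, TFF1, TFF2, TFF3 and AGR2 fell and MUC20 rose, where 38.6% of all genes tested fell and 34.2% rose. In HT-29 those 5 also fell and MUC20 rose, where 37.3% of all genes fell and 36.6% rose. In HCT-15, MUC13 and MUC20 fell and AGR2 rose, 2 against 1 of the 6, beside 35.4% and 34.8% of all genes. In SW480, MUC13 and TFF2 fell and MUC20 rose, beside 40.1% and 33.9%. In HCT116, AGR2 and MUC20 rose and none of the 6 fell in limma, beside 32.4% and 35.5%; at an unadjusted p under 0.05 or with voom on the reads the number that fell was also 0. In COLO320 none of the 6 passed in limma or voom, beside 37.2% of all genes lower and 31.0% higher. At an unadjusted p under 0.05 limma called MUC20 alone, higher, in COLO320, and voom called 0. The size of the JQ1 effect differed between lines for MUC13, MUC20 and AGR2, and for 93.3% of all genes.

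**Figure D2:**
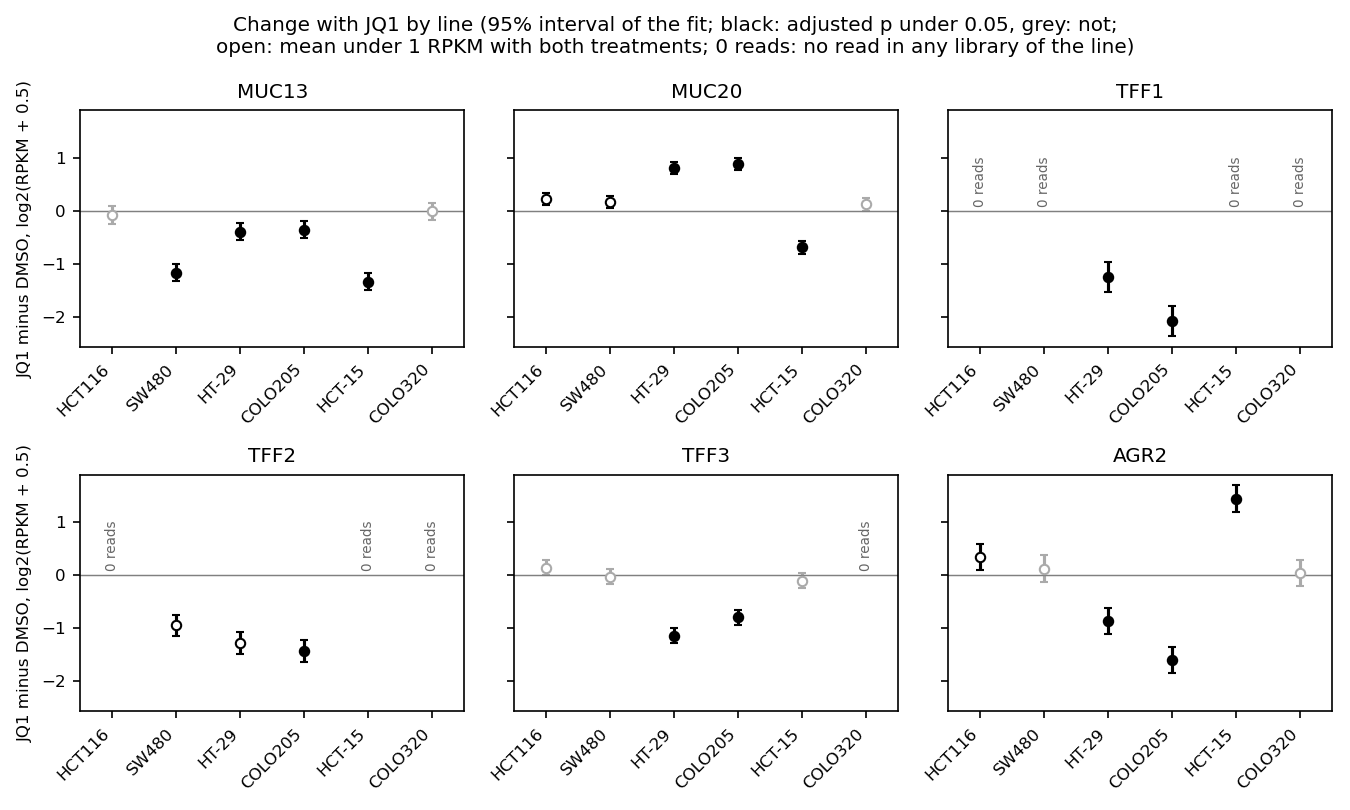
JQ1 minus DMSO on the log2(RPKM + 0.5) scale for the 6 tested members in each cell line, with the 95% interval of the fit; filled black points passed the test, grey ones did not, and open points had means under 1 RPKM with both treatments. AGR2 and MUC20 have points on both sides of 0, whereas every called value of MUC13, TFF1, TFF2 and TFF3 lies below it.

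MUC2 (Entrez 4583), the main gel-forming mucin of the colon, was under 1 RPKM in every library and changed in HT-29. There it read 0.652, 0.577 and 0.679 RPKM in the DMSO libraries and 0.0774, 0.110 and 0.0669 RPKM in the JQ1 libraries. These levels rest on 380 reads against 69, the groups did not overlap, and the means differed 7.49-fold. Without the filter on low values, MUC2 in HT-29 passed the test (log2 change −0.96, adjusted p = 1.45e-22 in limma). In the other 5 lines, the DMSO and JQ1 libraries of MUC2 overlapped and held 3 to 17 reads per group, at a mean of 0.00415 to 0.0247 RPKM.

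MUC5B (Entrez 727897), a gel-forming mucin better known from the airway, was seen mainly in COLO205. There it read 0.630, 0.671 and 0.677 RPKM in DMSO and 0.0404, 0.0406 and 0.0528 RPKM with JQ1, from 820 and 61 reads. Every JQ1 library lay below every DMSO library, and the means differed 14.8-fold. Without the filter this was a log2 change of −1.09 (adjusted p = 3.34e-29 in limma). In HT-29 it was far lower, at a mean of 0.0301 RPKM in DMSO and 0.00582 RPKM with JQ1, from 38 and 10 reads. The groups did not overlap there, and without the filter the fall passed limma (log2 −0.07, adjusted p = 0.000156) and voom on the reads (adjusted p = 0.00244). As for MUC2, the limma p-values of MUC5B rest on a spread shared with groups near 0 RPKM. They do not measure the spread within COLO205 or HT-29. Each group of the other 4 lines held 9 reads or fewer. The labels do not state strand, so reads of MUC5B and of the overlapping MUC5B-AS1 cannot be told apart. MUC2 and MUC5B are neighbours of MUC5AC on chromosome 11, and in DMSO the higher of the pair was MUC2 in HT-29 and MUC5B in COLO205.

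FCGBP (Entrez 8857), a large protein that binds to MUC2 in mucus, was low throughout. Its group means ran from 0.00284 RPKM in COLO320 DMSO to 0.122 RPKM in HCT116 JQ1. In HCT116 it read 0.0809, 0.0853 and 0.105 RPKM in DMSO and 0.1304, 0.1278 and 0.1076 RPKM with JQ1. The groups did not overlap, and the log2 change of 0.08 passed limma without the filter (adjusted p = 0.00725) but not voom on the recovered reads (adjusted p = 0.186). The groups did not overlap in HCT-15 either, at 0.0323 ± 0.00569 and 0.0452 ± 0.0079 RPKM from 45 and 62 reads, but that change passed neither limma without the filter (adjusted p = 0.256) nor voom (adjusted p = 0.326).

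MUC13 (Entrez 56667), a membrane mucin of the intestinal surface, fell in 4 lines. In COLO205 it read 145.6, 146.5 and 145.8 RPKM in DMSO and 113.7, 114.4 and 113.9 RPKM with JQ1. In HT-29 the mean went from 47.3 ± 0.303 to 36.02 ± 1.18 RPKM (SD, n = 3). These were log2 changes of −0.36 (SE 0.08, adjusted p = 0.000255) and −0.39 (SE 0.08, adjusted p = 8.27e-05), which did not differ beyond their error (interval of the difference −0.27 to 0.20). With a pseudocount of 0.1 neither passed the test (adjusted p = 0.0872 in COLO205 and 0.0584 in HT-29). The log2 changes were then nearly the same, −0.356 in COLO205 and −0.394 in HT-29, and the spread is shared with groups at low levels. In both lines the DMSO and JQ1 libraries did not overlap.

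In SW480 and HCT-15 MUC13 was lower in DMSO and its changes were larger on this scale. SW480 read 1.694, 2.048 and 1.853 RPKM in DMSO and 0.533, 0.481 and 0.648 RPKM with JQ1. HCT-15 read 1.827, 1.783 and 1.866 RPKM in DMSO and 0.376, 0.492 and 0.399 RPKM with JQ1. The ratios of the means were 3.37 in SW480 and 4.32 in HCT-15, and both log2 changes passed (−1.17, adjusted p = 1.72e-13, and −1.34, adjusted p = 8.48e-15). The fall in HCT-15 was larger than in COLO205 by 0.98 on the log2 scale (adjusted p = 1.54e-08) and than in HT-29 by 0.95 (adjusted p = 3.65e-08). In SW480 it was larger by 0.81 (adjusted p = 4.07e-07) and 0.78 (adjusted p = 8.8e-07). SW480 and HCT-15 did not differ in it beyond their error (interval of the difference −0.06 to 0.40). MUC13 stayed under 1 RPKM in HCT116, at 0.163 ± 0.054 and 0.132 ± 0.121 RPKM, and in COLO320, with 2 reads and 1 read. Neither change passed (log2 −0.08, adjusted p = 0.39, and log2 −0.01, adjusted p = 0.931). Among the alternatives run, that in HCT116 passed without JQ1 replicate 1 (log2 −0.23, adjusted p = 0.00183).

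MUC20 (Entrez 200958), a membrane mucin, was the member that rose where the others fell. In COLO205 it read 8.122, 8.586 and 8.817 RPKM in DMSO and 16.15, 15.93 and 16.16 RPKM with JQ1. In HT-29 it read 6.104, 6.372 and 6.348 RPKM in DMSO and 11.77, 11.31 and 10.89 RPKM with JQ1. The log2 changes were 0.88 (SE 0.06, adjusted p = 4.02e-14) and 0.80 (SE 0.06, adjusted p = 2.89e-13), and they did not differ beyond their error (interval of the difference −0.24 to 0.09). In HCT-15 MUC20 fell, from 1.731, 1.851 and 1.948 RPKM to 0.940, 1.045 and 0.885 RPKM (log2 −0.69, adjusted p = 1.13e-11). The effect in HCT-15 differed from that in COLO205 (adjusted p = 6.12e-16) and in HT-29 (adjusted p = 3.09e-15).

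In the other 3 lines MUC20 was under 1 RPKM. HCT116 went from 0.109 ± 0.0565 to 0.207 ± 0.0477 RPKM (log2 0.22, adjusted p = 0.00135), with libraries that overlapped. The call was lost when this line was fitted alone (adjusted p = 0.0655). SW480 went from 0.0405 ± 0.0154 to 0.105 ± 0.0164 RPKM (log2 0.16, adjusted p = 0.0127), and this call was lost without JQ1 replicate 3 (adjusted p = 0.0538), with a pseudocount of 1 (adjusted p = 0.0503) and under quantile scaling (adjusted p = 0.141). COLO320 went from 0.143 ± 0.0254 to 0.199 ± 0.0283 RPKM, in libraries that did not overlap, and did not pass (log2 0.12, adjusted p = 0.0666). It passed without DMSO replicate 1 (adjusted p = 0.0486), without JQ1 replicate 3 (adjusted p = 0.0363), without HCT116 DMSO replicate 2 (adjusted p = 0.0375), and under quantile scaling (log2 0.28, adjusted p = 1.64e-05), median centring (adjusted p = 0.016) or a pseudocount of 0.1 (adjusted p = 0.0407). MUC20 has a similar copy, the pseudogene MUC20P1 on the same chromosome in the RefSeq table, and no source used here says how reads of the pair were assigned. Its levels are therefore uncertain.

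The trefoil factors TFF3, TFF2 and TFF1, small secreted peptides of mucous surfaces, are neighbours on chromosome 21 and fell with JQ1 in both HT-29 and COLO205. TFF3 (Entrez 7033) is the intestinal one. In COLO205 it read 85.29, 82.38 and 83.86 RPKM in DMSO and 47.66, 49.81 and 47.32 RPKM with JQ1. In HT-29 it read 3.106, 3.519 and 2.796 RPKM in DMSO and 1.321, 1.137 and 0.994 RPKM with JQ1. The libraries did not overlap in either line. The log2 change was −0.79 in COLO205 (SE 0.07, adjusted p = 2.34e-11) and −1.14 in HT-29 (SE 0.07, adjusted p = 5.92e-15), and the fall was larger in HT-29 (difference −0.35, adjusted p = 0.00294).

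TFF3 was under 1 RPKM in HCT116, SW480, HCT-15 and COLO320, where no group held more than 8 reads. In COLO320 no library held a read, which allows up to 0.0990 to 0.12 RPKM per library at 3 reads. In HCT116 it was listed at 0 in all 3 DMSO libraries and had 4 reads with JQ1. That change did not pass (adjusted p = 0.0713), but it did without JQ1 replicate 2 (adjusted p = 0.0114), with a pseudocount of 0.1 (adjusted p = 0.01) and with voom (adjusted p = 0.0198). In HCT-15, with 8 and 4 reads, it passed only without JQ1 replicate 3 (log2 −0.18, adjusted p = 0.0264).

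TFF1 (Entrez 7031), the trefoil factor of gastric surface cells, was detected in 2 lines. In COLO205 it read 5.653, 5.433 and 5.816 RPKM in DMSO and 0.818, 1.233 and 0.847 RPKM with JQ1, from 193 and 36 reads. In HT-29 it read 1.529, 0.994 and 0.998 RPKM in DMSO and 0.504, 0.168 and 0 RPKM with JQ1, from 40 and 15 reads. In both lines every JQ1 library was below every DMSO library. The log2 change was −2.08 in COLO205 (SE 0.14, adjusted p = 5.57e-14) and −1.25 in HT-29 (SE 0.14, adjusted p = 2.5e-09), while the ratios of the means were 5.83 and 5.24. The lines differed by 0.82 on the log2 scale (adjusted p = 0.000632), a scale on which the added 0.5 RPKM shrinks the change from the lower level more. TFF1 reached 1 RPKM in libraries of HT-29 and COLO205 alone, so it was tested through groups where it is high. These tests use 1 spread pooled over all 12 groups. Groups without a TFF1 read count in it with no spread, which makes the SE and p-values smaller. The SE and p-values therefore do not measure the spread within HT-29 or COLO205. Both falls were still called when each line was fitted alone. TFF1 overlaps a noncoding gene, LOC105372815, whose reads cannot be told apart from its own without strand. No library of HCT116, SW480, HCT-15 or COLO320 held a TFF1 read, which allows up to 0.183 to 0.304 RPKM per library.

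TFF2 (Entrez 7032), the spasmolytic peptide of gastric glands, was seen in 3 lines. In COLO205 it read 1.906, 1.608 and 1.537 RPKM in DMSO and 0.341, 0.229 and 0.374 RPKM with JQ1, from 83 and 17 reads. In HT-29 it read 0.562, 1.152 and 0.946 RPKM in DMSO and 0.0539, 0.0584 and 0.0740 RPKM with JQ1, from 44 and 4 reads. In SW480 it read 0.582, 0.610 and 0.709 RPKM in DMSO and 0.111, 0 and 0.165 RPKM with JQ1, from 35 and 5 reads. TFF2 fell in all 3, with no overlap between libraries, although its mean was under 1 RPKM with both treatments in HT-29 and SW480. The log2 changes were −1.42 in COLO205 (adjusted p = 2.39e-13), −1.28 in HT-29 (adjusted p = 2.31e-12) and −0.95 in SW480 (adjusted p = 1.48e-09). As for TFF1, these p-values rest on a spread pooled with groups that held no read, which makes them smaller. TFF2 reached 1 RPKM only in DMSO libraries, of COLO205 and HT-29, so it was tested through groups where it is high. Its falls in those lines are given as a description. SW480 was thus a line with TFF2 reads and no TFF1 reads. No library of HCT116, HCT-15 or COLO320 held a TFF2 read, which allows up to 0.127 to 0.211 RPKM per library.

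AGR2 (Entrez 10551), a protein disulfide isomerase that goblet cells need to make MUC2, was the most abundant member. In HT-29 it read 393.3, 402.5 and 401.8 RPKM in DMSO and 213.2, 221.8 and 224.0 RPKM with JQ1. In COLO205 it read 292.3, 288.2 and 284.8 RPKM in DMSO and 96.59, 95.09 and 92.95 RPKM with JQ1. AGR2 fell in both, 1.82-fold in HT-29 (log2 −0.86, SE 0.12, adjusted p = 2.8e-07) and 3.03-fold in COLO205 (log2 −1.60, SE 0.12, adjusted p = 1.27e-12). The fall was larger in COLO205 by 0.74 (adjusted p = 0.000549).

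In HCT-15 AGR2 moved the other way. It read 3.727, 3.705 and 4.095 RPKM in DMSO and 11.91, 10.69 and 11.21 RPKM with JQ1, so every JQ1 library was above every DMSO library. The log2 change was 1.44 (SE 0.12, adjusted p = 1.43e-11), and it differed from that in COLO205 by 3.04 (adjusted p = 4.5e-15) and from that in HT-29 by 2.30 (adjusted p = 2.92e-12). HCT-15 was also the line in which MUC20 fell, opposite to its direction in HT-29 and COLO205. After the rise, AGR2 in HCT-15 was still below the JQ1 level of COLO205, at 11.3 ± 0.615 against 94.9 ± 1.83 RPKM.

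The remaining lines held little AGR2. HCT116 read 0.116, 0.249 and 0.203 RPKM in DMSO and 0.753, 0.203 and 0.256 RPKM with JQ1, so 1 JQ1 library stood above the rest and the groups overlapped. The log2 change of 0.35 passed (adjusted p = 0.0132), but not without that library, JQ1 replicate 1 (log2 0.09, adjusted p = 0.35), without DMSO replicate 1 (adjusted p = 0.0825), when the line was fitted alone (adjusted p = 0.258) or with voom on recovered reads (adjusted p = 0.0674). SW480 went from 0.248 ± 0.0501 to 0.319 ± 0.104 RPKM and did not pass (adjusted p = 0.373). COLO320 held 1 AGR2 read in its 6 libraries.

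Averaged over the 6 lines with equal weight, MUC13, TFF1, TFF2 and TFF3 were lower, MUC20 was higher and AGR2 did not pass. Thus 4 of the 6 tested members fell and 1 rose, where 48.3% of all genes tested fell and 40.2% rose. TFF1, TFF2 and TFF3 entered the tests through HT-29 and COLO205 alone, so their part of this count is a description. Their averages include lines without a read, and their p-values here rest on a spread pooled with such groups. The mean log2 changes were −0.56 for MUC13, −0.55 for TFF1, −0.61 for TFF2, −0.32 for TFF3 and 0.25 for MUC20 (adjusted p at most 2.93e-10 for each). For AGR2 it was −0.09 (adjusted p = 0.106), and its direction depended on the setting, at 0.02 with a pseudocount of 0.1 (adjusted p = 0.812), 0.15 with voom (adjusted p = 0.426) and −0.13 with a pseudocount of 1 (adjusted p = 0.000476). It was 0.22 without COLO205 (adjusted p = 0.00157) and −0.39 without HCT-15 (adjusted p = 1.04e-06), and it passed at −0.13 without JQ1 replicate 1 of HCT116 (adjusted p = 0.000186). With the cell line as the unit none of the 6 passed (adjusted p = 0.0538 for MUC13 to 0.334 for MUC20 among those called above), and TFF3 did not pass with voom (adjusted p = 0.163).

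The transcription factors of the secretory lineage were read beside the members in the same libraries. SPDEF, which drives goblet cell maturation, was above 1 RPKM in the lines with most AGR2. It went from 20.6 ± 0.567 to 1.36 ± 0.116 RPKM in HT-29 (log2 −3.50, adjusted p = 3.73e-26) and from 6.40 ± 0.444 to 2.76 ± 0.407 RPKM in COLO205 (log2 −1.08, adjusted p = 2.6e-14). ATOH1, which commits cells to the secretory lineage, went from 2.15 ± 0.172 to 0.364 ± 0.0224 RPKM in HT-29 (log2 −1.62, adjusted p = 7.85e-16). It held no read in any COLO205 library. In COLO320, a line with almost no member transcript, it went from 1.55 ± 0.503 to 1.02 ± 0.123 RPKM (log2 −0.40, adjusted p = 0.000227, and 0.12 when the line was fitted alone).

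FOXA3 and FOXA2, forkhead factors of gut epithelium, fell in HT-29, by 1.08 and 0.83 on the log2 scale (adjusted p = 2.02e-12 and 1.34e-11). FOXA3 also fell in HCT116, SW480 and HCT-15, and FOXA2 in SW480 and COLO205. In SW480 the means of both genes were under 1 RPKM with both treatments. The FOXA2 call in COLO205 was lost in limma with a pseudocount of 0.1 (adjusted p = 0.0919). In COLO205 FOXA3 rose, from 1.94 ± 0.196 to 4.29 ± 0.279 RPKM (log2 0.98, adjusted p = 2.16e-11), while TFF1, TFF3 and AGR2 fell there. CREB3L1, a membrane-bound factor of secretory cells, rose in HT-29 from 67.8 ± 0.477 to 108.3 ± 1.73 RPKM (log2 0.67, adjusted p = 3.97e-10). Where it was under 1 RPKM, it rose in SW480 (log2 0.87, adjusted p = 2.06e-12) and fell in HCT116 and HCT-15 (log2 −0.33 and −0.44, adjusted p = 9.39e-05 and 9.77e-07). KLF4, a factor of goblet cell differentiation, fell in HCT116, HT-29 and COLO205 (log2 −0.72, −0.50 and −0.55, adjusted p = 2.03e-09, 1.01e-06 and 2.47e-07) and rose in SW480 and HCT-15 (log2 0.59 and 0.69, adjusted p = 6.51e-08 and 3.6e-09). GFI1, which favours goblet and Paneth over endocrine cells, fell in HCT-15 from 3.57 ± 0.138 to 1.77 ± 0.245 RPKM (log2 −0.85, adjusted p = 1.05e-09). It also fell in SW480 and COLO205 (log2 −0.49 and −0.24, adjusted p = 1.13e-05 and 0.0163), and in HCT116 it rose (log2 0.36, adjusted p = 0.000635). In COLO205 GFI1 was under 1 RPKM with both treatments. The call there was lost with a pseudocount of 0.1 (adjusted p = 0.0544), quantile scaling (adjusted p = 0.223), voom (adjusted p = 0.0962) or the line fitted alone (adjusted p = 0.0632). It was also lost without DMSO replicate 2 or 3 or JQ1 replicate 1 (adjusted p = 0.0646 to 0.113).

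Of the 19 listed transcription factors of this lineage, 17 were tested. In HT-29, 9 fell and 6 rose, beside 37.3% and 36.6% of all genes tested. In COLO205, 8 fell and 6 rose, beside 38.6% and 34.2%. Their median log2 change was −0.19 in HT-29 and −0.07 in COLO205, against 0 and −0.01 over all genes tested. The largest mean changes among those called were of BHLHA15, EHF and SPDEF. BHLHA15, a factor of cells with heavy secretion, fell in all 6 lines, from 1.47 on the log2 scale in SW480 to 2.57 in COLO320 (highest adjusted p = 1.6e-10). EHF, an epithelial ETS factor, fell by 2.36 in HCT116, 1.59 in SW480, 1.13 in COLO205 and 1.99 in HCT-15 (highest adjusted p = 5.24e-19). In HT-29 its change did not pass (log2 −0.08, adjusted p = 0.103), and in COLO320, where it was nearly absent, it rose from 0.0126 to 0.117 RPKM (log2 0.26, adjusted p = 6.8e-06).

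Among 14 other mucins, 4 were tested. In COLO205, 3 of these fell and none rose in limma, beside 38.6% and 34.2% of all genes tested, with the same numbers at an unadjusted p and with voom. MUC1, a widely expressed membrane mucin, fell in all 6 lines. It was highest in COLO205 and went there from 31.9 ± 1.62 to 9.08 ± 0.297 RPKM (log2 −1.76, adjusted p = 7.43e-16). MUC3A, an intestinal membrane mucin, went from 2.62 ± 0.0734 to 0.795 ± 0.0564 RPKM in COLO205 (log2 −1.27, adjusted p = 1.44e-17). It also fell in HCT116 (log2 −0.20, adjusted p = 0.00416) and rose in SW480 (log2 0.17, adjusted p = 0.0127). The HCT116 call was lost with a pseudocount of 0.1 (adjusted p = 0.0862) and with the line fitted alone (adjusted p = 0.0717). In SW480 MUC3A was under 1 RPKM with both treatments. That call was lost with voom (adjusted p = 0.084), without DMSO replicate 3 (adjusted p = 0.0683) and without JQ1 replicate 1 (adjusted p = 0.0882). MUCL1, a small mucin-like protein, went from 1.83 ± 0.27 to 0.137 ± 0.125 RPKM in COLO205 (log2 −1.88, adjusted p = 3.26e-17). It reached 1 RPKM only in DMSO libraries, of COLO205 and SW480. Its place among the 4 tested mucins thus rests on groups where it is high, and its fall is given as a description. In HT-29, 2 of the 4 fell, beside 37.3% of all genes, and 1 of these, MUC3A, was no longer called without any one of 5 of the 6 HT-29 libraries (adjusted p = 0.0611 to 0.177).

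Of 29 other goblet cell secretory genes, 21 were tested. In COLO205, 11 fell and 3 rose, beside 38.6% and 34.2% of all genes tested, with a median log2 change of −0.15 against −0.01 over all genes. In HT-29, 10 fell and 6 rose, beside 37.3% and 36.6%, with a median of −0.22 against 0. AGR3, the neighbour and close relative of AGR2, went from 16.69, 18.10 and 19.53 RPKM to 0.610, 0.662 and 0.489 RPKM in HT-29 (log2 −4.10, adjusted p = 1.76e-21), where AGR2 fell 1.82-fold. AGR3 reached 1 RPKM only in DMSO libraries, of HT-29 and COLO205, so it too was tested through groups where it is high. TSPAN8, a tetraspanin of the epithelial surface, went from 472.5 ± 1.36 to 99.2 ± 3.06 RPKM in HT-29 and from 346.1 ± 8.34 to 87.0 ± 1.46 RPKM in COLO205 (adjusted p = 7.71e-13 and 1.26e-11). It also fell in HCT-15 and COLO320 (log2 −0.79 and −1.85). Its rise in HCT116 (log2 0.39, adjusted p = 0.0425) was lost without JQ1 replicate 1 (log2 0.01, adjusted p = 0.931), the library that also stood apart for AGR2.

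**Figure D3:**
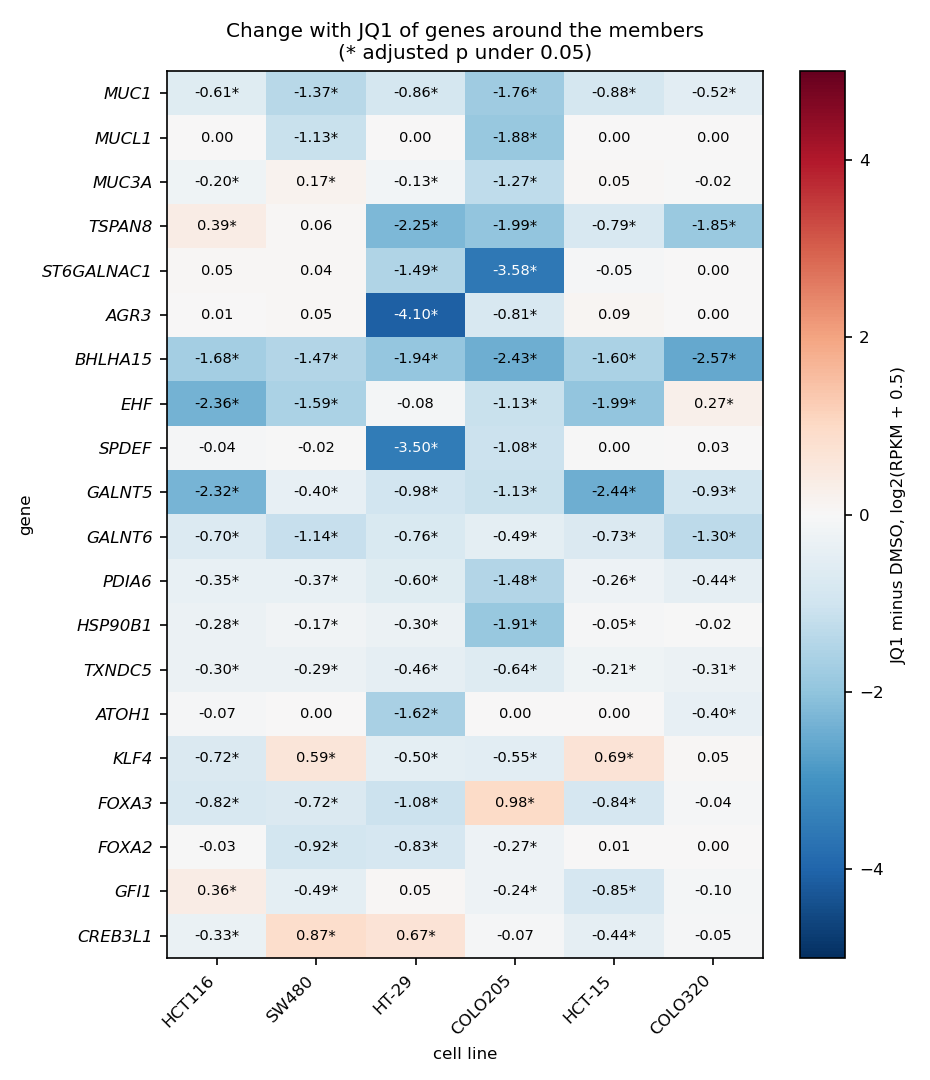
JQ1 minus DMSO on the log2(RPKM + 0.5) scale, as colour and number, for other mucins, goblet cell secretory genes, lineage transcription factors, O-glycosylation enzymes and endoplasmic reticulum folding genes (rows) in each cell line (columns); an asterisk marks an adjusted p under 0.05. AGR3 and SPDEF have their largest falls in HT-29, ST6GALNAC1 in COLO205, and BHLHA15 fell in all 6 lines.

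The sugar coat of mucins is built by mucin-type O-glycosylation, and 34 of 40 listed genes of this pathway were tested. In COLO205, 19 fell and 10 rose, beside 38.6% and 34.2% of all genes tested, with a median log2 change of −0.28 against −0.01. In HT-29, 15 fell and 13 rose, beside 37.3% and 36.6%, with a median of 0.02 against 0. ST6GALNAC1, which makes the sialyl-Tn sugar, went from 27.7 ± 0.571 to 1.87 ± 0.208 RPKM in COLO205 (log2 −3.58, adjusted p = 1.65e-30) and from 1.60 ± 0.0799 to 0.246 ± 0.0447 RPKM in HT-29 (log2 −1.49, adjusted p = 7.22e-22). GALNT5 and GALNT6, which attach the first sugar, fell in all 6 lines, although the fall of GALNT5 in SW480 did not pass under quantile scaling (adjusted p = 0.0545).

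AGR2 belongs to the protein disulfide isomerases, and all 17 listed isomerases and folding genes of the endoplasmic reticulum were tested. In COLO205, 14 fell and none rose in limma, beside 38.6% and 34.2% of all genes tested, with a median log2 change of −0.64 against −0.01. At an unadjusted p under 0.05 limma called 0 higher, voom on the reads called 1 higher and quantile scaling 2. In HCT-15, where AGR2 rose, 10 rose and 5 fell, beside 34.8% and 35.4%, with a median of 0.11 against 0. PDIA6, an isomerase, and HSP90B1, a chaperone, went from 409.8 ± 6.91 to 146.7 ± 4.06 RPKM and from 1052 ± 14.3 to 279.9 ± 2.68 RPKM in COLO205 (adjusted p = 4.77e-30 and 4.1e-33). TXNDC5, another isomerase, fell in all 6 lines, by 0.21 on the log2 scale in HCT-15 to 0.64 in COLO205.

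The genes whose pattern over the 12 group means was most like that of a member are given as a description, with no test. TFF3 was most like PLA2G4F (Pearson r = 0.998) and MYO7B (r = 0.996). MUC13 was most like AZGP1 (r = 0.981) and TMPRSS4 (r = 0.980), MUC20 most like FNIP2 (r = 0.977) and SPATA6L (r = 0.977), and AGR2 most like LRG1 (r = 0.978) and PLXNA2 (r = 0.974). The 12 points are 6 lines with 2 groups each, so they are not independent of each other.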

How the data were processed

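One RPKM per gene and library was calculated and deposited by the authors. The submitters' processing notes list GSNAP, DESeq and limma without versions. They also list NCBIM37, a mouse assembly name, for cells and Entrez numbers that are human. Groups were taken from the labels. Symbols were matched on Entrez numbers through the RefSeq table of GRCh38.p14, for 24519 of 26468 genes, and 0 value columns were left unmatched.

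The steps between RPKM values gave whole reads, within 0.01 read, for 100% of 23499 genes above 0. Where a library had no read of a gene, the limit printed is 3 reads (95% confidence), for counting error alone. Over the 36 replicate pairs chi-square per gene was 1.22 to 3.2, so each library counted as 1 replicate.

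A gene entered the tests if 3 or more of the 36 libraries had 1 RPKM or above. Values were taken as log2(RPKM + 0.5), which understates the change of low genes. The model, limma 3.58.1 in R 4.3.3 with a mean-variance trend, was fitted to 12 group means (24 residual and 2.97 prior degrees of freedom). Each gene thus had 1 spread for all groups. Groups without a read count in its degrees of freedom but bring no spread, which makes the SE and p-values of such genes smaller. All tests were two-sided. P-values were adjusted by Benjamini-Hochberg over the 15542 genes of a contrast, and an adjusted p under 0.05 was a call. The effect of JQ1 was estimated within each line, averaged over lines and compared between lines by F tests and in pairs. The script was tested on simulated data. Alternatives changed the pseudocount, filter, scaling, model and libraries. Tables were made with Python 3.11.15 and pandas 2.3.3.

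No label says whether replicates were separate cultures. The p-values therefore rest on a spread between samples that may be technical. The members and lists were chosen with earlier results of these data known. Named genes are the 10 members, HEXIM1, 7 lineage transcription factors, the 3 called genes of each of 5 lists with the largest mean change, and the 2 genes most like each member that averaged at least 1 RPKM in at least 4 of 12 groups. The 11 marker lists cover epithelium, goblet, gastric foveolar, enterocyte, enteroendocrine, Paneth, stem and tuft cells, fibroblasts, leukocytes and endothelium.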

Additional observations from a re-analysis of the deposited data

Results flagged for a closer look

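For MUC13, MUC20 and AGR2 the effect of JQ1 differed between the cell lines by an F test in limma over 5 differences, as it did for 93.3% of all genes tested. The adjusted p was 3.82e-12 for MUC13, 1.28e-15 for MUC20 and 3.15e-14 for AGR2. For AGR2 and MUC20 the lines moved in opposite directions: AGR2 rose by 1.44 in HCT-15 and fell by 1.60 in COLO205, and MUC20 fell by 0.69 in HCT-15 and rose by 0.88 in COLO205, all on the log2 scale. TFF1, TFF2 and TFF3 entered the tests through HT-29 and COLO205 alone, so for them only these lines are compared. On the log2 scale their falls differed between HT-29 and COLO205 for TFF1 (adjusted p = 0.000632) and TFF3 (adjusted p = 0.00294). No difference was detected for TFF2 (adjusted p = 0.412). For TFF1 the ratios of the means, DMSO over JQ1, were close, at 5.83 in COLO205 and 5.24 in HT-29. The pseudocount shrinks the change from the lower level more, and groups without a TFF1 read make the pooled spread smaller. The TFF1 test therefore cannot decide whether these lines differed in their response. No explanation of these differences was tested.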

How the results depend on the processing

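Of 42 member changes tested (6 members in 6 lines and on average), 25 were called. Of all 15542 genes tested, 10541 were called in HCT116, the fewest, and 13745 on average over the lines, the most. Of the 42, 35 kept their side of the threshold in every fit that left out 1 library. These 35 include changes without a read in either group, which no such fit could call. The replicate numbers do not pair the samples: same-numbered DMSO and JQ1 libraries correlated at −0.148 to 0.0492, and 4 of 18 DMSO libraries correlated best with their own number. The replicate block changed none of the 42 calls. Leaving out 1 library gave 0 to 1 members lower and 1 to 3 higher in HCT116, 0 to 1 higher in SW480 and 0 to 1 higher in COLO320. With each line fitted alone 0 were higher in HCT116. With a filter of 5 RPKM 1 was lower in SW480, since TFF2 was then not tested. With a pseudocount of 1, or quantile scaling, 0 were higher in SW480. With a pseudocount of 0.1, quantile scaling or median centring 1 was higher in COLO320. Voom on recovered reads with no filter, added after the data were seen, called 1 lower in COLO320, MUC5B. With the cell line as the unit 0 members were lower and 0 higher on average, and 2 were higher without COLO205. The average of AGR2 reversed to 0.217 without COLO205. The average of KLF4 was −0.072, and it reversed to 0.098 with voom, 0.103 with voom and no filter, 0.057 without HCT116, 0.014 without HT-29 and 0.023 without COLO205. The average of CREB3L1 was 0.108, and it reversed to −0.069 with a pseudocount of 0.1, −0.571 with voom, −0.567 with voom and no filter, −0.044 without SW480 and −0.0044 without HT-29. The cause of these changes was not tested. A planned quasi-likelihood count test was not run, because the deposited unit is RPKM. Outside HT-29 and COLO205 each group of MUC2, MUC5B and TFF3 held 17 reads or fewer, which limits what could be detected there.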

Other observations

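Markers of other cell types were read in the same libraries, as sums of mean RPKM with no test. The gastric foveolar list, which shares TFF1 and TFF2 with the members, summed to 7.33 in COLO205 DMSO and 1.3 with JQ1, while GKN2 was listed at 0 in every group and GKN1 did not exceed 0.0203 RPKM. The enterocyte list summed to 8.57 in COLO205 DMSO and 0.139 with JQ1, and to 3.19 and 0.357 in HT-29. FABP1 alone was at 8.49 RPKM in COLO205 DMSO. Apart from FABP1 and FABP2, no gene of the list exceeded 0.255 RPKM in any group. In HT-29 and COLO205, lysozyme, LYZ, which stands in both the Paneth and the leukocyte lists, made up most of either sum. The Paneth list summed to 1520 in HT-29 DMSO and 1060 in COLO205 DMSO, beside 1120 and 525 with JQ1. In HCT-15 DMSO the leukocyte list summed to 5.74, with CD14 at 5.17 RPKM. In COLO320 with JQ1 it summed to 4.48, with PTPRC at 4.07 RPKM. The Paneth defensin DEFA6 was listed at 0 in every group, and DEFA5 did not exceed 0.0856 RPKM. The enteroendocrine list was highest in SW480, at 6.28 in DMSO and 12.3 with JQ1. The tuft cell list was also highest in SW480, at 21.5 and 2.64, and rested on DCLK1. The stem cell list was highest in COLO205, at 87.2 and 115. The fibroblast list reached 15.6 in COLO320 DMSO and 3.07 with JQ1, with COL3A1 at 13.2 and PDGFRB at 1.18 RPKM in COLO320 DMSO, and COL1A1 was at 3.08 RPKM in HCT116 with JQ1, while COL1A2 and DCN stayed under 0.01 RPKM in every group. None of the 4 endothelial markers reached 1 RPKM in any group.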
